A study of Homo sapiens with 6 samples.

Results

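The nuclear-encoded subunits of the mitochondrial respiratory chain were followed in SW480 cells treated with dihydroartemisinin. They were chosen by gene name alone: NDUFA, NDUFB, NDUFC, NDUFS and NDUFV genes for complex I, the SDH genes for complex II, UQCR genes and CYC1 for complex III, COX4 to COX8 genes for complex IV and ATP5 genes for complex V. The names matched 104 of the 39293 genes in the count table. After 21 pseudogenes were left out, 83 members remained, with 37 in complex I, 4 in complex II, 9 in complex III, 16 in complex IV and 17 in complex V. Names do not always follow assembly. NDUFA4, named for complex I, is now counted as a complex IV subunit, and ATP5S, also called DMAC2L, is a factor of the synthase and no core subunit.

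SW480 is a human colorectal adenocarcinoma line, and dihydroartemisinin (DHA) is the active metabolite of the artemisinin antimalarials. Polyadenylated RNA was sequenced from 3 wells given DHA at 20 µg/mL for 4 h and from 3 control wells given 0.1% DMSO for 4 h. Whether the DHA wells also held DMSO is not in the labels. Nothing in them says that the wells were separate cultures, so p-values measure well-to-well spread alone, and that spread may be technical.

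The respiratory chain sits in the inner mitochondrial membrane. Complexes I and II take electrons from NADH and succinate, complex III passes them through cytochrome c to complex IV, and complex IV reduces oxygen. Complexes I, III and IV pump protons, and the ATP synthase, complex V, uses the resulting gradient. Apart from complex II, each complex joins subunits of the nuclear genome to subunits of the mitochondrial genome, and dedicated factors assemble them.

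The libraries held 14291726 to 18938456 counts, so 3 counts corresponded to 0.158 to 0.210 counts per 1000000 counts (CPM). Levels below are CPM scaled by TMM normalization factors. The epithelial genes EPCAM, KRT8, KRT18, KRT19, CDX2 and CDH1 were present in all libraries, CDX1 had 0 counts in all of them, and VIL1 and CDH17 were near 0. All 10 listed epithelial genes, KRT20 included, summed to 5702 to 5800 CPM in DHA and 4087 to 4488 CPM in controls. By the test described below 7 of them were tested, and 3 rose and 1 fell. These are 42.9% and 14.3%, beside 29.6% and 30.1% of all genes tested. The summed leukocyte markers reached 0.670 to 1.41 CPM in DHA and 0.183 to 0.291 CPM in controls, with PTPRC at 0 counts throughout. Summed fibroblast markers were at 74.0 to 94.9 CPM in DHA and 20.9 to 28.7 CPM in controls, almost all of it COL1A1, and endothelial markers stayed at or below 3.04 CPM in DHA and 2.50 CPM in controls. In RNA from whole wells, fewer cells of a type and less RNA per cell cannot be told apart. The DHA library of replicate 2, whose title reads DNA in place of DHA while its treatment field is the same, stood apart. Its counts differed from the other 2 DHA libraries by a chi-square per gene of 14.6 and 14.7, against 1.65 between those 2, 3.25 to 8.64 between controls and 106 to 138 between groups. Its effect on the members is given below. Mitochondrially encoded RNA took 11.6 to 13.3% of counts in DHA and 7.84 to 9.30% in controls.

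Transcripts of complexes I, III and IV were more often higher than lower in DHA-treated cells, although with a GC and length offset complex III had 0 genes higher and 1 lower. Those of complex II were lower in sum, and those of complex V were called less often than all genes in each direction. Of the 83 members, 75 passed the low-count filter. By the quasi-likelihood test of edgeR, with p-values adjusted by the Benjamini-Hochberg method over all 15811 genes tested and a threshold of 0.05, 30 of the 75 rose, 6 fell and 39 did not pass. That is 40% higher and 8% lower, beside 29.6% of all genes tested higher, 30.1% lower and 59.6% in either direction. By complex, 50% rose and 8.33% fell of the 36 tested in I, and 0% and 25% of the 4 in II. In III it was 44.4% and 0% of 9, in IV 54.5% and 0% of 11, and in V 13.3% and 13.3% of 15. With library totals alone, 17 members rose and 12 fell, beside 24.4% and 35.5% of all genes. There the members did not rise more often than all genes, nor with the replicate block or the GC and length offset described below. The members' median log2 fold change was 0.21, beside 0.01 for all genes. The ranges of the groups did not overlap in 36 of the 75, with DHA above control in 28 and below it in 8, beside 31.8% of all genes above and 33.4% below.

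**Figure D1:**
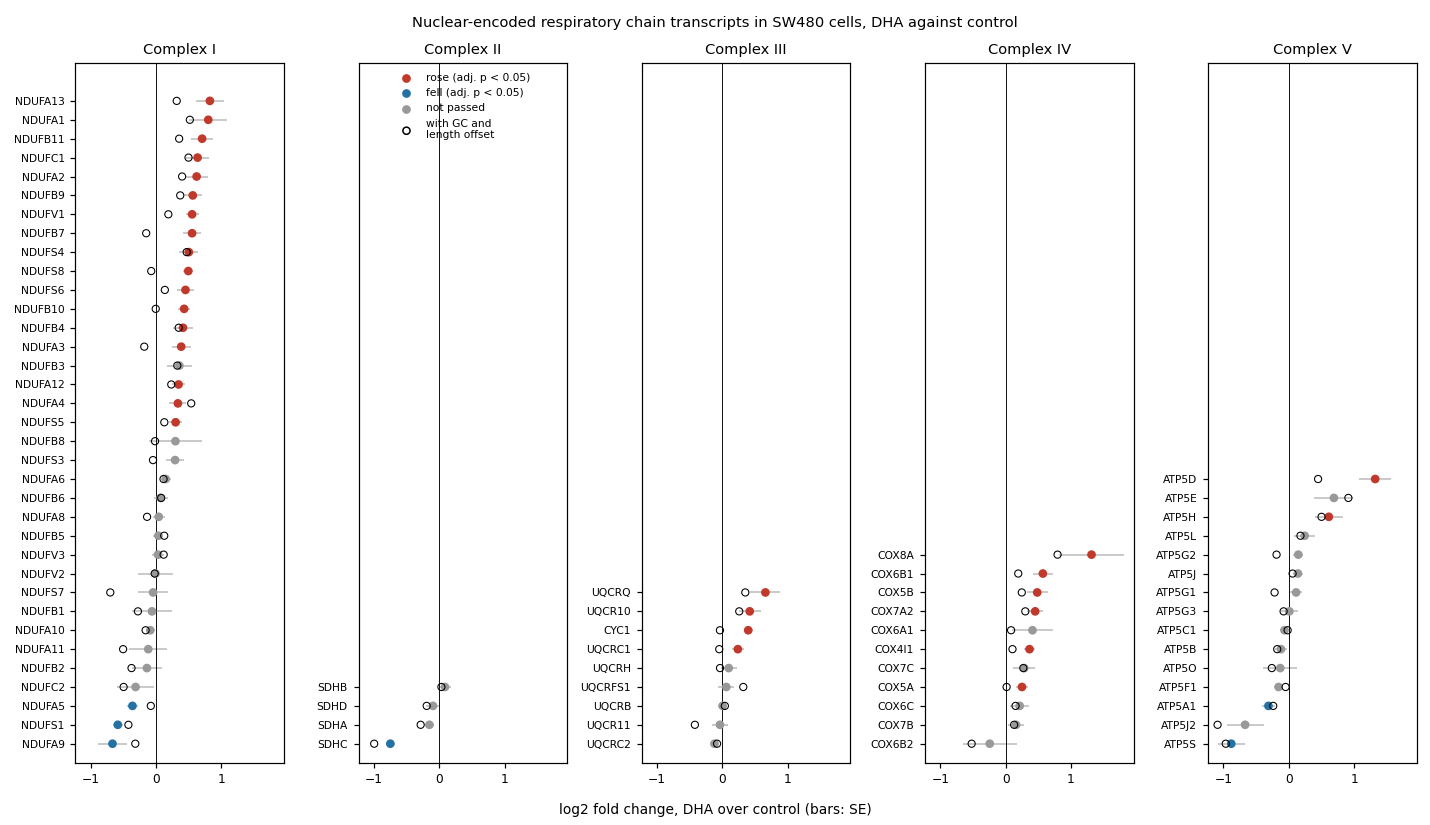
Log2 fold change of the tested members (1 of complex I is not drawn), DHA over control, by complex (filled points, bars: standard error, 3 libraries a group; red rose, blue fell, grey did not pass at adjusted p of 0.05), with open circles for the fit with a GC and length offset. Most complex I, III and IV points lie right of 0, with ATP5D and COX8A farthest at 1.32 and 1.31, and many open circles lie closer to 0.

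The summed levels, in which highly read genes weigh most, went the same way for complexes I to IV. Complex I summed to 1363, 1596 and 1356 CPM in DHA replicates 1, 2 and 3, against 1248, 1099 and 1273 CPM in the controls. Complex III summed to 1004, 1148 and 1024 CPM in DHA, against 945.0, 855.6 and 990.1 CPM in controls, and complex IV to 728.0, 907.3 and 691.7 CPM in DHA, against 634.0, 527.9 and 656.9 CPM in controls. In these complexes every DHA library lay above every control, with the highest DHA value and the lowest control value both in replicate 2. Complex II summed to 325.9, 302.8 and 334.5 CPM in DHA, all below the 384.7, 371.5 and 365.8 CPM of controls. Complex V summed to 1720, 2129 and 1699 CPM in DHA, against 1992, 1745 and 1934 CPM in controls, and its groups overlapped. The log2 ratios of the group means were 0.25 for complex I, -0.22 for II, 0.19 for III, 0.36 for IV and -0.03 for V. Without DHA replicate 2 they were 0.17, -0.18, 0.12, 0.23 and -0.15. Single genes weighed heavily. SDHC had a mean of 63.6 CPM in DHA and 107 CPM in controls, beside mean complex II sums of 321 and 374 CPM. CYC1 had 343 and 261 CPM, beside mean complex III sums of 1059 and 930 CPM. No test was run on these sums, since an exact permutation of 3 against 3 libraries cannot give a p below 0.1.

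**Figure D2:**
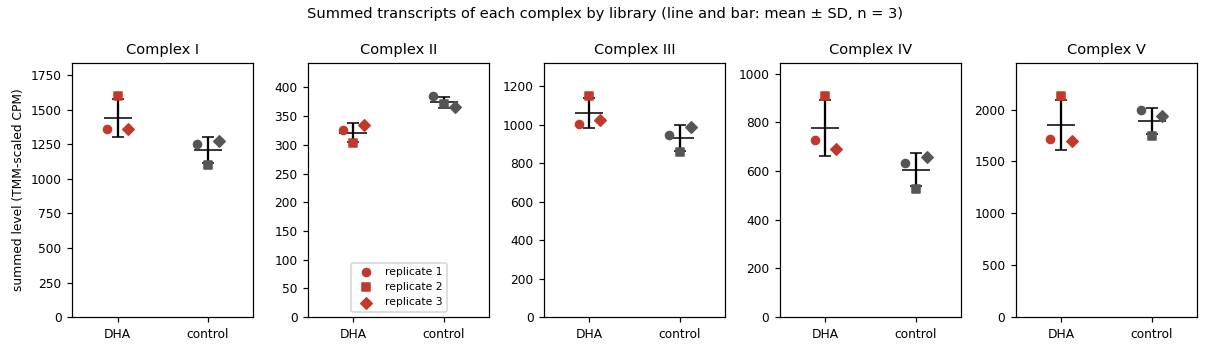
Summed TMM-scaled CPM of each complex in each library, DHA left and control right (points: libraries, shape: replicate number, line and bar: mean and SD of 3). DHA libraries lie above controls for complexes I, III and IV, below them for complex II, and the groups overlap for complex V, where DHA replicate 2 is highest at 2129 CPM.

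Respiratory genes are known targets of the transcription factors NRF1, GABPA (an ETS factor), YY1 and CREB. RefSeq promoter windows (GRCh38.p14, 250 bases before to 50 after the start) matched 66 members. Exact matches on either strand were counted for the palindromic NRF1 consensus, the ETS and GABPA letters (ACTTCCGG), the YY1 consensus and the CREB element (TGACGTCA). The ETS letters were in 9 of the 66 windows, or 13.6%, beside 8.5% of the windows of genes tested and 4.44% of all 27305 windows. The YY1 letters were in 7 windows, or 10.6%, beside 2.69% of tested genes and 1.28% of all. For NRF1 it was 4 windows, or 6.06%, beside 2.26% and 1.36%, and for the CREB element 5, or 7.58%, beside 3.23% and 1.98%. The ETS letters were in 5 of 25 risen members, 1 of 4 fallen members and 3 of 32 that did not pass, and the YY1 consensus in 2, 1 and 4 of them. The NRF1 consensus was in 1 risen, 0 fallen and 3 not passed members, and the CREB element in 0, 0 and 4. The ETS matches of risen and fallen members that lie upstream of the RefSeq start are shown here, with the matched letters in capitals. They are on the gene's strand, 5′ to 3′. The deposited gene coordinates can start elsewhere. By them the matches of NDUFS1, UQCRQ and NDUFA13 lie inside the gene, and that of COX8A spans its start.
NDUFS1 (fell), chr2:206159584-206159613, minus strand: aggctggggccACTTCCGGcggaactgcgg
COX5B (rose), chr2:97646014-97646043, plus strand: gaagcccgcccCCGGAAGTccctcctgtct
ATP5H (rose), chr17:75047053-75047082, minus strand: cccgggaagatACTTCCGGaaccagccctc
UQCRQ (rose), chr5:132866577-132866606, plus strand: aatggtatctcCCGGAAGTtacctcacgac
NDUFA13 (rose), chr19:19516204-19516224, plus strand: tccgcccgggaCCGGAAGTgt
COX8A (rose), chr11:63974590-63974619, plus strand: ccagctccagaACTTCCGGccagcgcagcc
NDUFS1, which fell, and COX8A, which rose, hold the same letters in the same orientation, and COX5B holds another match that spans its RefSeq start. A match is a description of these letters, not a binding site.

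Complex I had 18 members that rose, 3 that fell and 15 that did not pass, with a median log2 fold change of 0.30 over the 36 tested. The core subunits carry the flavin and the iron-sulfur clusters that move electrons from NADH to ubiquinone, and they changed in both directions. NDUFV1 binds the flavin and accepts electrons from NADH. It had 117, 140 and 118 CPM in DHA, against 94.5, 74.3 and 87.6 CPM in controls, and rose by 0.55 ± 0.10 (log2 fold change ± SE, adjusted p = 0.000509). NDUFS8, which holds iron-sulfur clusters near the quinone site, had 82.2, 94.1 and 86.7 CPM in DHA, against 65.2, 58.8 and 62.9 CPM in controls, and rose by 0.49 ± 0.08 (adjusted p = 0.000169). Both genes were higher in every DHA library than in any control. With the GC and length offset described below neither passed, at 0.19 for NDUFV1 and -0.074 for NDUFS8.

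NDUFS1, the largest core subunit, went the other way. Its gene (chromosome 2, 206114817 to 206159603, minus strand) had 59.5, 63.0 and 62.0 CPM in DHA, against 99.5, 86.6 and 90.8 CPM in controls. All DHA values lay below all control values, and NDUFS1 fell by 0.59 ± 0.07 on the log2 scale (adjusted p = 3.61e-05), a call kept under all 16 alternative settings. NDUFS1 and NDUFV1 are neighbours in the same electron-input module of the complex. The core genes NDUFS3, NDUFS7 and NDUFV2 did not pass, with log2 fold changes of 0.29 ± 0.14, -0.05 ± 0.22 and -0.01 ± 0.27. With the offset NDUFS7 was at -0.70 and fell (adjusted p = 0.0176). NDUFS7 and NDUFV2 were read at only 1.16 to 2.73 CPM in any library.

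Among the supernumerary subunits, which surround the core and are needed for its assembly and stability, 15 rose, 2 fell and 12 did not pass. The largest rise without the offset was that of NDUFA13, also called GRIM19 and linked to cell death as well as to complex I. It had 5.78, 4.87 and 4.02 CPM in DHA, against 2.97, 3.17 and 2.15 CPM in controls, and rose by 0.82 ± 0.21 (adjusted p = 0.00539), or by 0.32 with the offset, which did not pass (adjusted p = 0.262). NDUFB11, an X-linked membrane-arm subunit, had 50.04, 81.1 and 51.3 CPM in DHA and 40.8, 31.3 and 39.98 CPM in controls, a rise of 0.70 ± 0.17 (adjusted p = 0.00369). NDUFA1, another X-linked subunit, had 10.9, 24.97 and 10.01 CPM in DHA and 9.46, 7.56 and 9.53 CPM in controls. In all 3 genes every DHA value was above every control. DHA replicate 2 was far above the others for NDUFA1 and NDUFB11, and without it NDUFA1 had a log2 fold change of 0.26 (adjusted p = 0.132) in place of 0.80 ± 0.29 (adjusted p = 0.0322).

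The calls of NDUFC1 and NDUFB9 held under all 16 alternatives. NDUFC1 had 23.7, 36.8 and 26.0 CPM in DHA, against 20.1, 14.3 and 21.3 CPM in controls, and rose by 0.64 ± 0.17 (adjusted p = 0.00802). NDUFB9 had 48.2, 76.2 and 54.9 CPM in DHA, against 41.1, 38.6 and 42.0 CPM in controls, and rose by 0.56 ± 0.14 (adjusted p = 0.00421). Both are membrane-arm subunits, and neither overlapped between groups. NDUFB10 rose by 0.43 ± 0.10 (adjusted p = 0.00215), with 128 to 137 CPM in DHA and 82.4 to 108 CPM in controls, but was at -0.0052 with the offset (adjusted p = 0.963). The other 9 risen supernumerary genes were NDUFA2, NDUFA3, NDUFA4, NDUFA12, NDUFB4, NDUFB7, NDUFS4, NDUFS5 and NDUFS6, with log2 fold changes of 0.30 for NDUFS5 to 0.62 for NDUFA2. Of these, NDUFA3, NDUFA4 and NDUFB4 lost their calls without DHA replicate 2, at 0.21, 0.16 and 0.24.

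Both supernumerary genes that fell are subunits of the arm that faces the matrix. NDUFA5 had 39.7, 38.4 and 35.2 CPM in DHA, against 45.8, 48.7 and 51.2 CPM in controls, and fell by 0.36 ± 0.08 on the log2 scale (adjusted p = 0.0024). NDUFA9, at the joint of the 2 arms, had 2.18, 2.68 and 1.90 CPM in DHA, against 3.32, 4.39 and 3.14 CPM in controls, and fell by 0.67 ± 0.22 (adjusted p = 0.0218). Neither overlapped between groups. With the GC and length offset described below, NDUFA5 had -0.08 and NDUFA9 -0.32, and neither passed. NDUFA9 also lost its call without control replicate 2, at -0.53 (adjusted p = 0.0787), and without DHA replicate 1 or 3.

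Complex II, succinate dehydrogenase, also belongs to the TCA cycle and is the complex with no mitochondrially encoded subunit. One of its 4 genes fell and the others did not pass. The median was -0.12, and 0 rose, also at an unadjusted p under 0.05, by DESeq2 and by limma. SDHC, a membrane anchor that binds heme and ubiquinone (chromosome 1, 161314257 to 161375340), had 63.6, 62.4 and 64.8 CPM in DHA, against 108, 106 and 106 CPM in controls. The means were 63.6 ± 1.17 CPM in DHA and 107 ± 1.21 CPM in controls (SD, n = 3 each), and the groups did not overlap. SDHC fell by 0.75 ± 0.06 on the log2 scale (adjusted p = 1.70e-06), and by 0.995 with the GC and length offset. The flavoprotein gene SDHA had 132, 126 and 134 CPM in DHA, against 155, 139 and 141 CPM in controls. Its log2 fold change of -0.15 ± 0.07 did not pass (adjusted p = 0.0796), and with the offset SDHA fell by 0.28 (adjusted p = 0.00242). The iron-sulfur gene SDHB had 110, 89.6 and 114 CPM in DHA, against 101, 99.3 and 95.0 CPM in controls, with DHA replicate 2 the lowest of all 6. Its log2 fold change was 0.09 ± 0.09 with that library and 0.22 without it (adjusted p = 0.417 and 0.00684). SDHD, the other anchor, had 20.4 to 25.1 CPM in DHA and 21.4 to 26.5 CPM in controls, with a log2 fold change of -0.10 ± 0.11.

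In complex III, the cytochrome bc1 complex, 4 of 9 genes rose and the other 5 missed the threshold. The median was 0.10, and 0 fell, also at an unadjusted p under 0.05 and by DESeq2, against 1 by limma. CYC1, which encodes cytochrome c1, had 327, 347 and 356 CPM in DHA, against 254, 251 and 279 CPM in controls. No DHA value fell within the control range, and CYC1 rose by 0.39 ± 0.07 (adjusted p = 0.000551), but with the offset it was at -0.038 (adjusted p = 0.645). UQCRQ, a small subunit beside cytochrome b, had 7.26, 14.6 and 8.48 CPM in DHA and 6.44, 5.79 and 7.15 CPM in controls. It rose by 0.66 ± 0.23 (adjusted p = 0.0271), and without DHA replicate 2 its value of 0.31 did not pass (adjusted p = 0.107). The core gene UQCRC1 (0.24 ± 0.09) and the small subunit UQCR10 (0.42 ± 0.17) passed narrowly, at adjusted p of 0.0484 and 0.0496, with groups that overlapped. Without DHA replicate 2 they were at 0.19 and 0.22, and neither passed. UQCRFS1, the Rieske iron-sulfur protein, had a log2 fold change of 0.06 ± 0.12, and the other core gene, UQCRC2, one of -0.12 ± 0.07.

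Complex IV, cytochrome c oxidase, had 6 genes that rose, 0 that fell and 5 short of the threshold among 11 tested. The median was 0.37. At an unadjusted p under 0.05, by DESeq2 and by limma, 0 also fell. COX4I1, the ubiquitous form of the regulatory subunit 4, had 316, 357 and 307 CPM in DHA, against 270, 223 and 268 CPM in controls, and rose by 0.37 ± 0.09 (adjusted p = 0.00427). COX6B1, which faces the intermembrane space, had 65.3, 88.4 and 57.7 CPM in DHA, against 45.9, 40.9 and 55.9 CPM in controls, and rose by 0.57 ± 0.15 (adjusted p = 0.00615). COX7A2, the liver-type form of subunit 7a, had 47.3, 62.1 and 42.7 CPM in DHA, against 35.7, 36.8 and 38.9 CPM in controls, and rose by 0.45 ± 0.12 (adjusted p = 0.00703). None of these groups overlapped, and the call of COX7A2 held under all 16 alternatives. With the offset neither of the other genes passed, at 0.10 for COX4I1 and 0.19 for COX6B1. COX5A and COX5B rose by 0.25 ± 0.10 and 0.48 ± 0.16 (adjusted p = 0.0445 and 0.0233). Without control replicate 2 they were at 0.14 and 0.40, and neither passed (adjusted p = 0.208 and 0.102). Without DHA replicate 2 COX5A was at 0.19 and did not pass, and COX5B was at 0.23 and did (adjusted p = 0.0713 and 0.0270).

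The widest spread in complex IV was that of COX8A, a small membrane-spanning subunit (chromosome 11, 63974607 to 63976543). It had 2.40, 9.99 and 2.41 CPM in DHA, against 1.48, 1.95 and 2.67 CPM in controls. Only replicate 2 of DHA lay above the controls. The fitted log2 fold change was 1.31 ± 0.50 (adjusted p = 0.0390), and without that library it was 0.28 (adjusted p = 0.431). The authors' deposited table of changed genes lists COX8A at a log2 fold change of 1.27.

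The tissue-restricted partners of these subunits were at or near 0. COX6A2 and COX7B2 had 0 counts in all 6 libraries. COX4I2, the lung form, had 7 counts over the DHA libraries and 0 over controls, COX8C had 5 and 1, and COX7A1, the heart and muscle form, had 17 and 16. These 5 genes were too low to test. COX6B2, the testis form, was tested at 0.700 ± 0.347 CPM in DHA and 0.813 ± 0.108 CPM in controls (SD, n = 3 each), with a log2 fold change of -0.24 ± 0.41.

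Complex V, the ATP synthase, had 2 genes that rose, 2 that fell and 11 short of the threshold among 15 tested. The median was 0.01. ATP5D encodes the delta subunit of the central stalk (chromosome 19, 1241746 to 1244826). It had 94.7, 214 and 103 CPM in DHA, against 52.1, 50.6 and 62.2 CPM in controls. Every DHA library was above every control, with replicate 2 at more than the level of the other DHA libraries together. ATP5D rose by 1.32 ± 0.25 (adjusted p = 0.000692), the largest rise among the members, and by 0.87 without DHA replicate 2 (adjusted p = 1.57e-06). The authors' deposited table lists it at 1.30. With the GC and length offset it was 0.45 (adjusted p = 0.0231), so the call held under all 16 alternatives while its size did not. The epsilon subunit gene ATP5E, a partner of ATP5D in the stalk, had 40.6, 95.2 and 38.7 CPM in DHA, against 39.2, 26.0 and 43.3 CPM in controls, and its value of 0.69 ± 0.30 did not pass (adjusted p = 0.0638). With the offset ATP5E rose by 0.91 (adjusted p = 0.0286), and without DHA replicate 2 it was at 0.15 (adjusted p = 0.410). ATP5H, the peripheral stalk subunit d, had 20.6, 38.3 and 20.4 CPM in DHA, against 15.2, 18.5 and 18.5 CPM in controls, and rose by 0.61 ± 0.21 (adjusted p = 0.0256). Without DHA replicate 2 ATP5H was at 0.26 (adjusted p = 0.0572).

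The alpha and beta subunit genes of the catalytic head showed no such rise. ATP5A1, the alpha subunit, had 315, 387 and 304 CPM in DHA, against 439, 386 and 424 CPM in controls. It fell by 0.31 ± 0.10 on the log2 scale (adjusted p = 0.0143), with DHA replicate 2 inside the control range, and by 0.40 without that library (adjusted p = 0.000123). Its call ended without DHA replicate 1 or 3 or control replicate 1, at -0.26, -0.24 and -0.28. The catalytic beta subunit ATP5B (-0.12 ± 0.09) did not pass. Nor did ATP5C1 (-0.07 ± 0.07), the gamma subunit, which belongs to the central stalk with ATP5D and ATP5E. The peripheral stalk genes ATP5F1 (-0.16 ± 0.07), ATP5J (0.14 ± 0.08) and ATP5O (-0.13 ± 0.26) did not pass either. ATP5S had 2.04, 2.74 and 2.56 CPM in DHA, against 3.99, 4.21 and 5.40 CPM in controls, with no overlap, and fell by 0.88 ± 0.21 (adjusted p = 0.00311). Its call held under all 16 alternatives. The 3 genes for the membrane c ring did not pass: ATP5G1 had a log2 fold change of 0.11 ± 0.09, ATP5G2 0.15 ± 0.08 and ATP5G3 0.01 ± 0.13. With the offset all 3 were below 0, and ATP5G1 fell by 0.22 (adjusted p = 0.0179). Without DHA replicate 2 ATP5G2 rose by 0.20 (adjusted p = 0.0396). ATP5J2, the f subunit, had 3.10, 6.70 and 2.49 CPM in DHA, against 6.75, 6.28 and 6.86 CPM in controls. It had a log2 fold change of -0.67 ± 0.28 (adjusted p = 0.0597) with DHA replicate 2 and -1.22 (adjusted p = 9.43e-05) without it.

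The other 3 untested members were low in every library. NDUFA7, a matrix-arm subunit of complex I, had 1, 3 and 3 counts in DHA, against 16, 9 and 14 counts in controls. All its DHA counts were below all control counts. It missed the filter with all 6 libraries and passed it without DHA replicate 2, with a log2 fold change of -2.26 (adjusted p = 0.00813). The authors' deposited table lists NDUFA7 at -2.22. ATP5I, the e subunit, had 6 counts over DHA and 12 over controls, and ATP5L2 had 1 and 0.

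DHA replicate 2 tended to be high for the members. It lay above the mean of the other DHA libraries in 60 of the 75 members, with a median log2 difference of 0.25, beside 0.00 over all genes. Among the 30 risen members it was above in 28, with a median of 0.48. Control replicate 2 lay below the mean of the other controls in 57 of the 75. The median log2 difference over the 75 was -0.14, beside -0.00062 over all genes. Without DHA replicate 2, 23 members rose and 11 fell, beside 29.8% and 28.7% of all genes. The members' share of rises was then close to that of all genes. Of the 30 rises 20 kept their calls, and of the 6 falls 6 did. The added rises were SDHB (0.22), NDUFA6 (0.21) and ATP5G2 (0.20). The added falls were ATP5J2, NDUFA7, NDUFB2 (-0.52), ATP5B (-0.18) and UQCRC2 (-0.15). Without control replicate 2, 17 members rose, and each of them had risen with all 6 libraries. Over the fits with 1 library left out, 4058 to 4792 of all genes rose. The share of all genes for the fit without control replicate 2 is not given here, so the 17 are not set against it. With each of the 6 libraries left out in turn, 17 of the 30 rises and 4 of the 6 falls kept their calls every time. The falls that did not were NDUFA9 and ATP5A1. The 13 rises that did not were NDUFA1, NDUFA3, NDUFA4, NDUFB4, NDUFS4, NDUFS5, UQCRC1, UQCRQ, UQCR10, COX5A, COX5B, COX8A and ATP5H. The part of control replicate 2 and that of DHA replicate 2 in the rises were not tested beyond leaving each out.

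Members are short genes, with a median transcript of 761 bases beside 2338 for all genes tested, at a GC content of 50.1% beside 50%. Across all 15766 genes with both values, log2 fold changes went with GC content (Spearman's rho 0.37) and against length (-0.27). Over the 75 members these were 0.28 and -0.32. Genes share libraries and are not independent, so these are descriptions. The risen members were at a median GC content of 53.5% and the fallen ones at 46.2%. With an offset that takes out smooth trends with GC and length in each library, 10 members rose and 9 fell, beside 26.8% and 26.4% of all genes, and the median was 0.03. With the replicate number as a block the count was 20 higher and 6 lower, beside 27.6% and 28.7% of all genes. With offset and block together it was 7 higher and 10 lower, and the shares of all genes for that fit are not given here. With the offset alone, 9 of the 30 rises kept the call, namely NDUFA2, NDUFA4, NDUFB4, NDUFB9, NDUFC1, NDUFS4, COX7A2, ATP5H and ATP5D, and ATP5E was added. Another 6 were at or below 0: NDUFA3, NDUFB7, NDUFB10, NDUFS8, UQCRC1 and CYC1. NDUFS1, SDHC and ATP5S remained lower, and NDUFS7, UQCR11, SDHA, NDUFA10, ATP5G1 and ATP5J2 were added to the falls. The offset would also take out a DHA response that runs with GC or length, and the 2 cannot be told apart here.

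**Figure D3:**
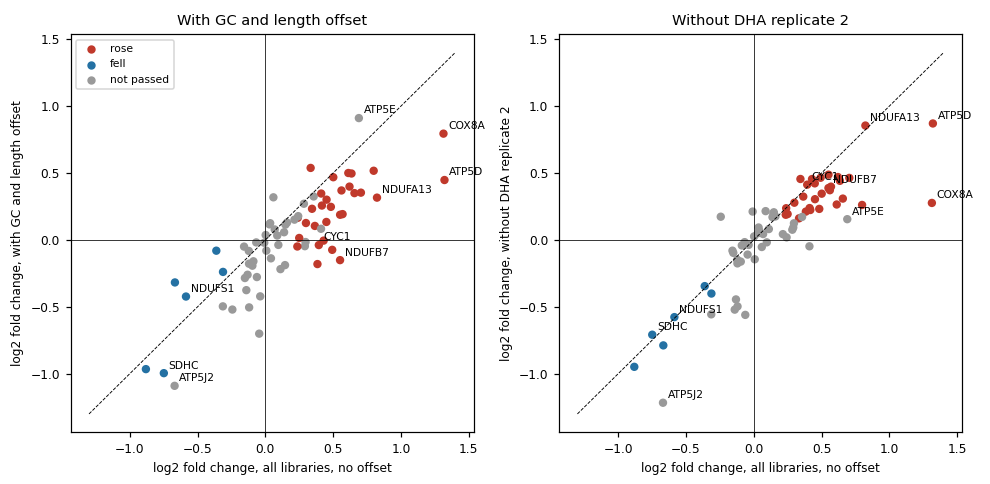
Log2 fold change (DHA over control) of the 75 tested members with all libraries and no offset (x axis) against the value with a GC and length offset (left, y axis) and without DHA replicate 2 (right, y axis); the dashed line marks equal values. COX8A drops to 0.28 without DHA replicate 2 and ATP5D to 0.45 with the offset, while SDHC and NDUFS1 stay below 0 in both panels.

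Some members share exons with other genes. In GENCODE 29, 16 of 76 members had at least 40% of their coding bases inside an exon of another gene, on the same strand for 13 of them; 6 tissue-restricted forms and ATP5L2 were left out, and the 40% was set after the values were seen. Their median control level was 3.17 CPM per kb of transcript (range 0.624 to 27.8), beside 62.9 CPM per kb (2.27 to 436) for the other 60. The level was under 10 CPM per kb in 11 of the 16 and in 3 of the 60. The 16 were NDUFA7, NDUFA9, NDUFA13, NDUFB2, NDUFB8, NDUFC2, NDUFS7, NDUFV2, SDHD, UQCR11, COX6A1, COX8A, ATP5I, ATP5J2, ATP5L and ATP5O. The sources used here do not say how the counting tool treated shared exons, so counts of these genes are uncertain, and the part of shared exons in their levels was not tested. Of the 14 tested, 2 rose and 1 fell (NDUFA13, COX8A and NDUFA9), and of the other 60, 28 rose and 5 fell. Over all genes tested, 29.6% rose and 30.1% fell. NDUFB8 shares exon bases with HIF1AN, NDUFA7 with RPS28 and SDHD with TIMM8B.

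**Figure D4:**
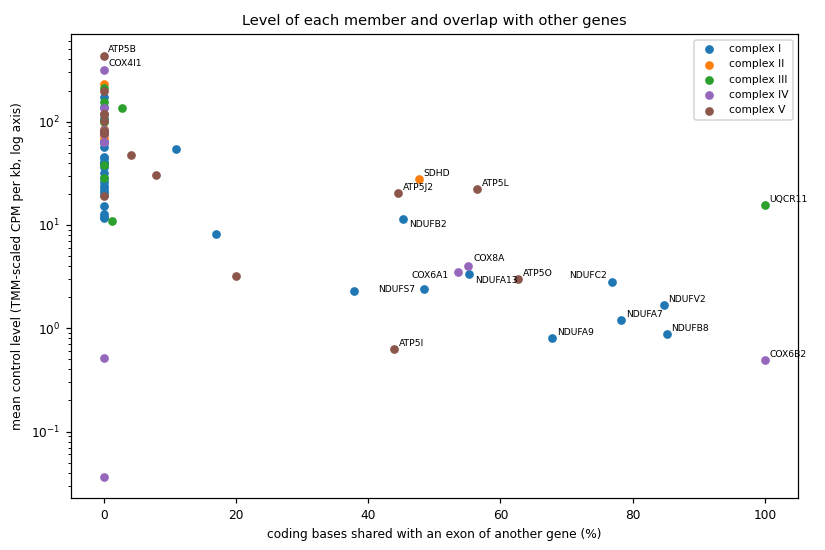
Mean control level of each member (y axis, TMM-scaled CPM per kb of transcript, log axis; members at 0 are not drawn) against the share of its coding bases inside an exon of another gene (x axis, %), coloured by complex. The named members at 40% or more lie at or below 27.8 CPM per kb, and ATP5B and COX4I1, with 0 shared, are the highest.

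Genes around the subunits were called in both directions. Of 49 tested assembly factors, 13 rose and 10 fell, with a median of 0.16. These are 26.5% and 20.4%, both below the 29.6% and 30.1% of all genes. With the offset 8 rose and 11 fell. Each factor was placed on the list of 1 complex only. On the complex I list, 6 of 18 rose and 2 fell. ECSIT at 0.50 ± 0.08 and FOXRED1 at 0.42 ± 0.08 were above 0, and TMEM70 at -0.40 ± 0.07 and TMEM126B at -0.22 ± 0.08 below it. The 4 complex II factors did not pass, and 0 had an unadjusted p under 0.05. For complex III, BCS1L, which inserts the Rieske protein, rose by 0.63 ± 0.09 and TTC19 by 0.38 ± 0.10. LYRM7, the chaperone that holds the Rieske protein before insertion, had 13.1, 12.1 and 12.6 CPM in DHA, against 25.5, 26.8 and 25.5 CPM in controls, and fell by 1.04 ± 0.09 (adjusted p = 2.34e-06). For complex IV, 5 of 19 rose and 6 fell. COX15 and COX11, which act in heme A synthesis and copper insertion, fell by 0.68 ± 0.07 and 0.59 ± 0.08, and COA7 fell by 0.65 ± 0.10, while SURF1 rose by 0.60 ± 0.11 and COA6 by 0.75 ± 0.20. Of the 2 tested factors on the complex V list, ATPAF1, a chaperone of the beta subunit, fell by 0.38 ± 0.09. All of these named factors but ECSIT, FOXRED1 and TMEM126B kept their calls under all 16 alternatives.

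Of 13 mitochondrially encoded subunits, 9 rose and 3 fell, or 69.2% and 23.1%, beside 29.6% and 30.1% of all genes. MT-CO3 was at 0.55 ± 0.09, MT-ND6 at -1.22 ± 0.13, MT-ND5 at -0.68 ± 0.10 and MT-ND1 at -0.23 ± 0.09. Without DHA replicate 2, 9 rose and 2 fell, and MT-ND1 was at -0.14 (adjusted p = 0.0706). MT-ND5 and MT-ND6 lie on opposite strands, and whether counting used the strand is not stated in the sources used here. Cytochrome c, CYCS, had 196, 194 and 212 CPM in DHA, against 238, 215 and 246 CPM in controls, and fell by 0.21 ± 0.07 (adjusted p = 0.0257), or 0.16 without DHA replicate 2, which did not pass (adjusted p = 0.0517). NDUFA4L2, a hypoxia-induced relative of NDUFA4, rose by 1.44 ± 0.39 (adjusted p = 0.00754) at 2.17 ± 0.540 CPM in DHA and 0.802 ± 0.502 CPM in controls (SD, n = 3 each). With the offset it was at 0.96 and did not pass (adjusted p = 0.0665). NDUFAB1 and COX7A2L did not pass.

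Among 13 TCA cycle enzymes, 2 rose and 6 fell, or 15.4% and 46.2%, beside 29.6% and 30.1% of all genes. With the offset 1 rose and 8 fell. The isocitrate dehydrogenase subunits split: catalytic IDH3A had 31.5, 27.3 and 31.8 CPM in DHA, against 50.3, 50.7 and 49.0 CPM in controls, and fell by 0.73 ± 0.08 (adjusted p = 1.66e-05). Its regulatory partner IDH3G had 54.3, 57.6 and 55.4 CPM in DHA, against 35.02, 34.8 and 34.6 CPM in controls, and rose by 0.68 ± 0.07 (adjusted p = 8.71e-06). Neither gene overlapped between groups. IDH3B rose by 0.29 ± 0.06, or by 0.09 with the offset, which did not pass, and DLD, the shared lipoamide dehydrogenase, fell by 0.63 ± 0.08.

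Of 8 regulators of respiratory genes tested, 1 rose and 3 fell, or 12.5% and 37.5%, beside 29.6% and 30.1% of all genes. With the offset 3 rose and 2 fell: GABPA was at 0.51 and NRF1 at 0.22, and the fall of YY1, at -0.43 without the offset, was at -0.065 and did not pass. The coactivator PPARGC1B had 15.6, 12.8 and 15.3 CPM in DHA, against 52.9, 44.1 and 52.6 CPM in controls, and fell by 1.77 ± 0.11 on the log2 scale (adjusted p = 1.38e-07). TFAM, which packages mitochondrial DNA and acts in its transcription, fell by 0.57 ± 0.08, with 53.1 to 60.04 CPM in DHA and 83.2 to 89.7 CPM in controls. GABPB1, the partner of GABPA, rose by 0.58 ± 0.09. The related coactivator PPARGC1A had 0 counts in all 6 libraries.

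**Figure D5:**
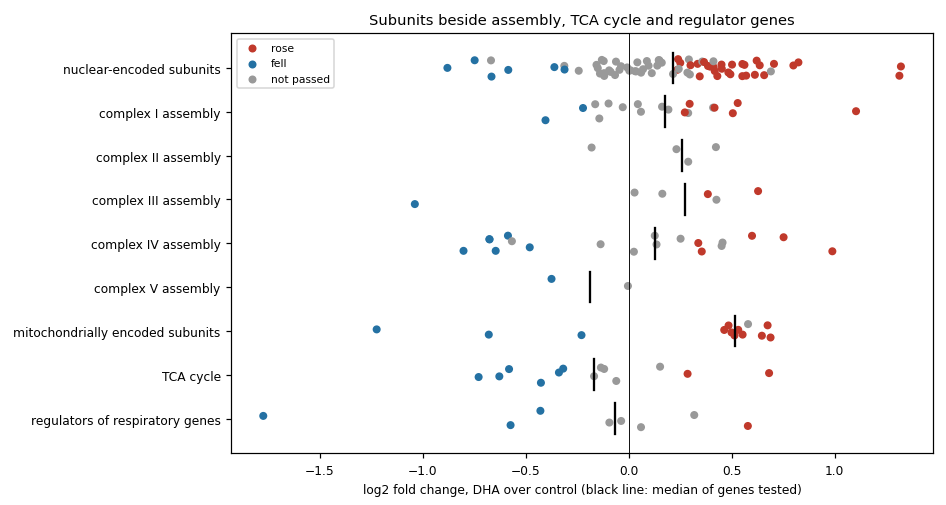
Log2 fold change (DHA over control) of each tested subunit, assembly factor, TCA cycle enzyme and regulator (points, red rose, blue fell, grey did not pass; black line: median of the genes tested in that list). The 75 subunits have a median of 0.21, PPARGC1B lies lowest at -1.77, and the assembly, mitochondrial and TCA lists hold points on both sides of 0.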

How the data were processed

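Polyadenylated RNA of 6 SW480 wells was sequenced. The deposited table holds the authors' read counts per gene, and a second deposited table holds the authors' log2 fold changes and p-values for genes they called changed. Reads were aligned with HISAT2 and compared with DESeq2 1.18.1, per the submitters' processing notes. Not given in the sources used here are the counting tool, its strand setting and the build. Of the gene IDs, 39167 were found in GENCODE 29, 96.9% of them with the same GRCh38 coordinates, which are the ones printed. A further deposited table of normalized values was not used.

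Of 40846 count rows, 39293 were kept, 1 per name, since 1696 genes shared 143 names with identical counts; 32 text lines were left out. DHA was tested against control with edgeR 4.0.16 (R 4.3.3): TMM factors, filterByExpr, glmQLFit and glmQLFTest, no covariates, 2-sided, Benjamini-Hochberg adjustment over 15811 genes, threshold 0.05. The common biological coefficient of variation was 0.0902. On simulated data the test found 99 of 100 genes changed by 1 log2 unit and 100 of 100 changed by 2, with 11 false calls among 14962 genes. The simulation gave every gene that same coefficient of variation, changed only genes above 2 CPM, and held no library that stood apart. Smaller changes, such as most of those of the members, were not simulated, so these figures do not carry over to the members. CPM is the deposited count per 1000000 counts of the library, divided by the TMM factor. The offset used the median length and GC content of each gene's GENCODE basic transcripts, fitted by splines with 5 degrees of freedom per library. Alternatives were other size factors, library totals, other filters, DESeq2 1.42.0, limma 3.58.1 on log2(CPM + 1), a replicate block, the offset with and without the block, pseudogene counts added, and each library left out. Members with values are the largest changes, the smallest adjusted p in each complex, core and complex II genes, low members, and those that change with the processing, and from each list up to 3 genes of smallest adjusted p plus up to 2 in the less frequent direction. A gene that the rule would name is not reported here. Members and lists were chosen with earlier results of these data known. The 3-count floor covers counting error only.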

Additional observations from a re-analysis of the deposited data

How the results depend on the processing

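The counts of members depended on scaling. Shares of all genes are given above for library totals, the offset, the block and the fit without DHA replicate 2, and not for the other alternatives. Members higher in DHA numbered 30, against 17 with library totals alone, 17 with limma, 10 with the GC and length offset and 7 with the offset and the replicate block together; members lower numbered 6, against 12 with totals, 12 with limma, 11 with no filter and 10 with offset and block. Complex I had 18 higher, 6 with the offset and 4 with offset and block. Complex II had 1 lower and 2 with totals, no filter, limma, the offset, or offset and block. Complex III had 4 higher, 2 with DESeq2, 1 with totals, limma or the block alone, and 0 with the offset, with or without the block; it had 0 lower, and 1 with totals, limma, the offset, or offset and block. Complex IV had 6 higher, 3 with totals, limma or the block, and 1 with the offset, with or without the block. Complex V had 2 higher and 2 lower, 1 higher with totals or limma, and 5 lower with totals, limma or no filter and 4 with offset and block. Leaving out 1 library at a time, members higher ranged over 17 to 34 and lower over 5 to 11, complex I over 12 to 20 and 3 to 5, II over 0 to 1 and 1 to 2, III over 1 to 4 and 0 to 1, IV over 3 to 7 and 0 to 0, and V over 1 to 3 and 1 to 4. The lowest member count higher was without control replicate 2 and the highest count lower without DHA replicate 2. The counts over all genes (4674 higher, 4757 lower) stayed within 1.5 times under every setting, and the summed levels moved by less than 1 SD. The cause of these differences was not tested.

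Directions turned for 18 of the 82 genes given alternatives. With the offset, and with offset and block, these were NDUFA3 at -0.18 and -0.19, NDUFB7 at -0.15 and -0.15, NDUFS8 at -0.074 and -0.074, UQCRC1 at -0.049 and -0.049, CYC1 at -0.038 and -0.039, NDUFS3 at -0.047 and -0.060, and NDUFB10 at -0.0052 and -0.0021. SDHB turned to -0.011 with totals and -0.015 with limma. NDUFS7 ranged over -0.12 to 0.12 with 1 library left out, above 0 without DHA replicate 3 (0.12) and control replicate 3 (0.017). NDUFV2 was at 0.0086 with DESeq2 size factors, 0.0058 with a 1-CPM filter, 0.12 with pseudogene counts, and -0.12 to 0.21 with 1 library left out: 0.21, 0.066 and 0.0052 without DHA replicate 2, control replicate 1 and control replicate 2. With the offset, and with offset and block, ATP5G1 was at -0.22 and -0.22, ATP5G2 at -0.19 and -0.19, ATP5G3 at -0.080 and -0.086, and GABPA at 0.51 and 0.51. ATP5G3 was also at -0.086 with totals, -0.060 with no filter, -0.0012 with the replicate block, -0.0069 with DESeq2 and -0.096 with limma. UQCRFS1 was at -0.034 with totals, -0.0073 with no filter and -0.038 with limma, and NRF1 at -0.037, -0.0089 and -0.033. With 1 library left out, NDUFB2 ranged over -0.52 to 0.032, UQCRFS1 over -0.065 to 0.16, COX6B2 over -0.51 to 0.17, ATP5G3 over -0.14 to 0.10, GABPA over -0.10 to 0.010 and NRF1 over -2.3e-05 to 0.10. Of 1281 values for these genes over 16 settings, 1041 kept direction and call, 157 lost the call, 31 gained one and 52 turned. Of the 36 called members, 7 kept their call throughout, 4 higher and 3 lower. Same-numbered DHA and control libraries did not deviate together (r of 0.0271, -0.121 and -0.0869 across genes), so the numbers were not taken to pair them; with the replicate block, 20 members were higher and 6 lower. Genes near 3 counts a library, such as NDUFA7 and ATP5I, are limited by depth.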
